A study of Oryza sativa with 12 samples.

Results

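Roots of an f3h line of rice (Oryza sativa) were compared with wild-type (WT) roots by bulk RNA-seq, in 3 libraries of each genotype, which are 6 of the 12 libraries of a series that also holds leaves. The f3h root libraries carry the genotype label f3h knockdown, whereas the design text describes CRISPR mutants, and the WT root libraries come from the cultivar ZH11, as their titles name it. Both genotypes were grown in Kimura nutrient solution at 28 degrees Celsius with 12 h of light and 12 h of dark, and both were 1 month old when sampled. Neither source used here states which flavanone 3-hydroxylase locus was targeted, whether f3h is 1 line or several, or whether the libraries of a genotype came from separate plants. Each p-value therefore sets a difference against the spread of 3 libraries a group, and that spread can be technical alone. The 3 f3h leaf and 3 WT leaf libraries, from the same genotypes, conditions and age, serve below only for comparison.

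The members of the comparison were the 24583 genes that passed an expression filter on the 6 root libraries, of 37960 in the deposited table. Total counts were 25804026, 27917598 and 23740780 in the f3h root libraries and 27429014, 27317632 and 29687320 in the WT root libraries. Log2 levels of replicates correlated with r between 0.960 and 0.977 across genes, which are not independent replicates, and no library stood apart. Levels are given as CPM (a gene's count scaled to its library's total), as mean ± SD over 3 libraries where no library is named. Fold changes are log2 values of f3h root minus WT root with their standard error. A gene was called when its adjusted p from edgeR's quasi-likelihood test was under 0.05. CPM does not correct for gene length, so levels are compared between genotypes and not between genes.

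Flavanone 3-hydroxylase converts flavanones to dihydroflavonols, a branch point between flavones, flavonols and the precursors of anthocyanins and tannins. Flavanones are made from the phenylpropanoid pathway, which starts at phenylalanine ammonia-lyase and also supplies the monolignols that stiffen xylem walls and the Casparian strip. The root is the organ that takes up water and ions, and the endodermis with its Casparian strip controls their passage to the vascular cylinder. Grasses acquire iron by secreting phytosiderophores, which are built from methionine through nicotianamine.

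About as many genes rose as fell, but large falls outnumbered large rises. In f3h root 6130 of the 24583 genes were higher (24.9% of the genes tested) and 6232 were lower (25.4%), together 50.3%. With a fold change of at least 2-fold, 1116 genes were higher (4.54%) and 2394 were lower (9.74%). In 57.3% of the genes every f3h root library lay on the same side of all WT root libraries. The median log2 fold change of all genes was 0.01, so that a list of genes is read below against these shares and against a median near 0.

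**Figure D1:**
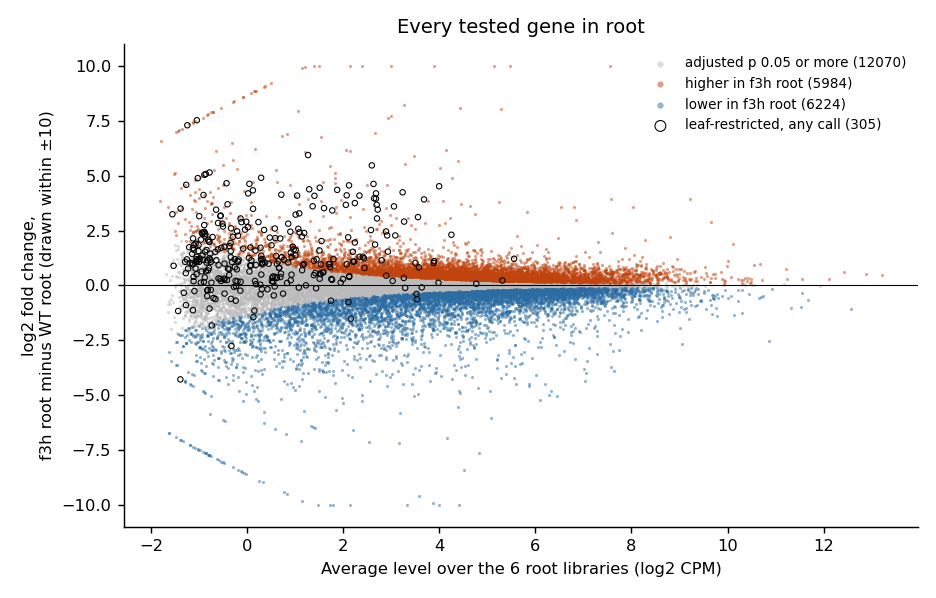
Each point is 1 of the 24583 genes tested in root, with the average log2 CPM of the 6 root libraries on the x axis and the log2 fold change of f3h root minus WT root on the y axis. Fitted values beyond ±10, which belong to genes near 0 counts in one genotype, are drawn at ±10, and the 305 leaf-restricted genes (open circles) lie mostly above 0.

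Genes of the leaf were treated apart. These were the 305 tested genes with a level more than 64-fold higher in WT leaf than in WT root, and 146 of them were higher in f3h root (47.9%) while 8 were lower (2.62%), together 50.5%. With at least 2-fold changes, 136 were higher (44.6%) and 4 lower (1.31%), together 45.9%. Genotypes did not overlap in 58.7% of these genes, and their median log2 fold change was 1.17. WT root enters both this split and the fold change, so the shift is a description and was not tested. Leaf-restricted genes without counts in WT root also passed the expression filter through f3h root and could only be called higher. Among the genes nearest to the limit, the split put GA20OX2 (Os01g0883800, leaf over root 59.3-fold) with the other genes and LOG (Os01g0588900, 82.4-fold) with the leaf-restricted ones.

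Chlorophyll-binding and carbon fixation genes stood out among them. CAB2R (Os01g0600900), a chlorophyll a/b-binding protein of the light-harvesting antenna, was at 24.0, 25.8 and 23.1 CPM in f3h root and 1.31, 1.65 and 1.75 CPM in WT root. CAB1R (Os09g0346500), from the same family, was at 20.1, 17.5 and 16.6 CPM in f3h root and 0.948, 0.622 and 1.21 CPM in WT root. RCA (Os11g0707000), Rubisco activase, was at 21.5, 20.6 and 21.9 CPM in f3h root and 3.21, 2.09 and 1.95 CPM in WT root. CAB2R, CAB1R and RCA were each higher in every f3h root library than in any WT root library. They nonetheless reached only 0.425%, 0.224% and 0.155% of their f3h leaf level in f3h root. GLN2 (Os04g0659100), the chloroplast glutamine synthetase, was at 16.5 ± 2.29 CPM in f3h root and 15.0 ± 2.1 CPM in WT root (log2 0.12 ± 0.14, adjusted p = 0.513). The level added in f3h root over WT root was 0.0945% of the f3h leaf level for GLN2, 0.138% for RCA, 0.213% for CAB1R and 0.398% for CAB2R. Over the 305 leaf-restricted genes the median of this share was 0.277%, with an upper quartile of 0.724%.

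Over the 305 genes, the f3h root level was a median of 0.733% of the f3h leaf level, with quartiles of 0.299% and 1.67%. The WT root level was a median of 0.389% of the WT leaf level. Summed over these genes, the level was 1142, 1171 and 1147 CPM in the f3h root libraries and 474.2, 481.8 and 475.5 CPM in the WT root libraries. A trace of leaf RNA in all 3 f3h root libraries and low expression of these genes in f3h root cannot be told apart here, and in bulk samples a change in the number of cells of a type cannot be told apart from a change in RNA per cell.

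**Figure D2:**
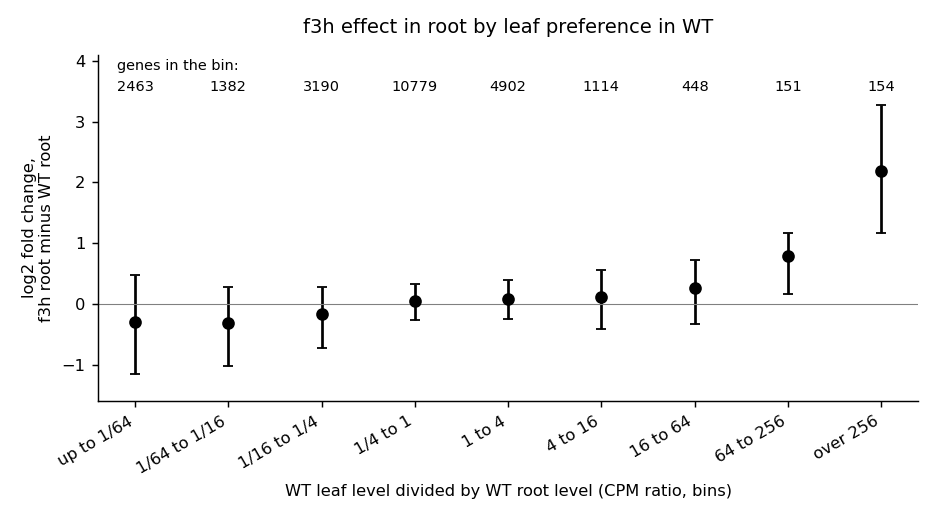
Genes are binned by the ratio of WT leaf to WT root CPM on the x axis. The y axis gives the median log2 fold change of f3h root minus WT root, with bars for the quartiles, which was -0.30 in the most root-restricted bin and 2.19 in the bin with the strongest preference for leaf.

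The fold change is set beside the preference for leaf as a description only, since a low WT root value places a gene in a high bin and also raises its fold change. The expression filter adds to this, since genes without counts in WT root were tested only where f3h root was high enough. In the 154 genes with a leaf to root ratio above 4 times the 64-fold limit, the median log2 fold change was 2.19 and 70.1% were higher. In the 151 genes between the limit and that ratio, the median was 0.79 and 25.2% were higher. Genes at a ratio of 16 to 64 had a median of 0.27. At the other end, among 2463 genes at least 64-fold higher in WT root than in WT leaf, 39.2% were lower in f3h root and 22.2% were higher. Without the leaf-restricted genes, 5984 genes were higher (24.6%) and 6224 lower (25.6%) of 24278, and at least 2-fold changes numbered 980 higher (4.04%) and 2390 lower (9.84%).

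The mesophyll marker list, of photosynthesis and chlorophyll synthesis genes, moved with them. Of its 18 tested members, 16 were higher and none was lower in f3h root, and 17 of the 18 were leaf-restricted. Its 21 members summed to 163.1, 169.7 and 170.1 CPM in f3h root and 41.5, 38.9 and 35.8 CPM in WT root, against 57320 to 59040 CPM in f3h leaf, and none was at 0 in either root group. CHLH (Os03g0323200), a subunit of the magnesium chelatase of chlorophyll synthesis, was at 7.59 ± 1.04 CPM in f3h root and 3.15 ± 0.106 CPM in WT root (log2 1.24 ± 0.22). CHLD (Os03g0811100), another subunit, is not leaf-restricted and stood at 8.67 ± 0.180 CPM in f3h root and 8.60 ± 1.29 CPM in WT root (adjusted p = 0.940). The part of leaf RNA in the other results was not tested, and the f3h leaf level is given beside the largest rises below.

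Organelle transcripts were higher as well. Only 12 of the 111 identifiers without an Os locus, such as cob (cytochrome b), cox2 (a cytochrome oxidase subunit) and atp6 and atp9 (ATP synthase subunits), passed the expression filter. They had 0 to 14 counts in any WT root library and so passed it through f3h root, which is why their calls are not counted here. All 111 identifiers together held 524, 555 and 556 counts in f3h root and 47, 68 and 18 counts in WT root. cob was at 2.71, 4.26 and 4.84 CPM in f3h root and 0.365, 0.512 and 0 CPM in WT root (log2 3.72 ± 0.54). Summed over the 111, the level was 19.9 to 23.4 CPM in f3h root and 0.606 to 2.49 CPM in WT root, beside 34.8 to 37.2 CPM in f3h leaf and 48.5 to 95.02 CPM in WT leaf. The 12 that passed the filter, which favours high values in f3h root, had an f3h root level of at least 1442% of the f3h leaf level in the 9 with any count in f3h leaf. For cob the level was 3.94 ± 1.102 CPM in f3h root and 0.0944 ± 0.0584 CPM in f3h leaf.

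Root identity was checked with 20 root markers. They summed to 4192, 4186 and 4216 CPM in f3h root and 4568, 4753 and 4556 CPM in WT root, against 51.5 to 68.7 CPM over the 6 leaf libraries. Most of the sum in root came from the silicon transporters LSI1 and LSI2, so it says little about the other markers. A single marker, whose name was not checked, had no count in f3h root, and none was without counts in WT root. Of 17 tested markers 9 were lower and 1 was higher in f3h root. The silicon importer LSI1 (Os02g0745100) was at 1857 ± 31.5 CPM in f3h root and 2021 ± 36.3 CPM in WT root (log2 -0.15 ± 0.03), and its efflux partner LSI2 (Os03g0107300) at 1476 ± 9.11 CPM in f3h root and 1433 ± 39.3 CPM in WT root (adjusted p = 0.754).

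A Casparian strip gene and a root hair gene had the lowest p-values of the edgeR test among the named root markers. Single genes do not stand for their cell types, and LSI1 and LSI2 changed little. CASP1 (Os04g0684300), a membrane scaffold protein of the Casparian strip, was at 24.4, 28.0 and 26.3 CPM in f3h root and 82.7, 89.7 and 85.7 CPM in WT root. CSLD1 (Os10g0578200), a cellulose synthase-like protein needed for root hair growth, was at 6.86, 6.84 and 8.55 CPM in f3h root and 18.2, 23.2 and 21.5 CPM in WT root. Both were lower in every f3h library (log2 -1.74 ± 0.08 and -1.53 ± 0.15). NRAMP5 (Os07g0257200), the main manganese and cadmium importer of rice roots, fell less (log2 -0.32 ± 0.05; not called in the fit of all 12 libraries, adjusted p = 0.0523), and RAA1 (Os01g0257300), which affects root architecture, rose to 174.9 ± 2.19 CPM in f3h root, against 115.2 ± 9.28 CPM in WT root. The ground tissue regulators SHR1 (Os07g0586900, log2 -0.41 ± 0.07) and SCR1 (Os11g0124300, log2 -0.48 ± 0.13) were lower too, while QHB (Os01g0854500), a marker of the quiescent centre, stood at 3.42 ± 0.298 CPM in f3h root and 3.31 ± 0.976 CPM in WT root (adjusted p = 0.971).

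The loci listed as flavanone 3-hydroxylase genes came first among the pathway genes, since the line is named after the enzyme. Os10g0536400 was at 31.9, 35.2 and 33.1 CPM in f3h root and 37.7, 36.2 and 31.9 CPM in WT root, and the genotypes overlapped (log2 -0.11 ± 0.09, adjusted p = 0.351). Os04g0667200 had 38, 16 and 18 counts in f3h root and 30, 27 and 39 counts in WT root (adjusted p = 0.657). Os04g0662600 had no count in the f3h root libraries and 2, 20 and 17 counts in the WT root libraries, at least 11.9-fold lower over the group when 3 counts are taken as the floor, but it was too low to be tested. An RNA level does not check an edit of the gene, because edited genes can still be transcribed, and a knockdown would be looked for as a lower level.

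Genes of flavonoid and phenylpropanoid synthesis were mostly lower in f3h root. In the flavonoid list, 6 of 10 tested members fell, all by at least 2-fold, none rose, and the median log2 fold change was -1.09. CHI (Os03g0819600), chalcone isomerase, which makes the flavanone substrate of the enzyme, was at 55.6, 55.5 and 45.9 CPM in f3h root and 100.3, 117.1 and 101.9 CPM in WT root (log2 -1.05 ± 0.08, adjusted p = 1.27e-12). Chalcone synthase CHS1 (Os11g0530600), the enzyme before it, was near the detection limit at 0.245 ± 0.0111 CPM in f3h root and 0.779 ± 0.383 CPM in WT root, and its call (adjusted p = 0.0479) was lost without any 1 of the 6 libraries (adjusted p 0.0508 to 0.290).

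In the phenylpropanoid and lignin list, 20 of 24 tested members fell, 10 of them by at least 2-fold, and 1 rose, with a median of -0.94. PAL (Os02g0626100), a phenylalanine ammonia-lyase at the entry of the pathway, was at 3960, 3923 and 3817 CPM in f3h root and 8300, 8205 and 8025 CPM in WT root. Its levels in the genotypes did not overlap (log2 -1.10 ± 0.02, adjusted p = 9.19e-26). COMT1 (Os08g0157500), a methyltransferase of syringyl lignin and melatonin synthesis, was at 484.4, 489.1 and 489.3 CPM in f3h root and 1199, 1344 and 1225 CPM in WT root (log2 -1.40 ± 0.04).

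Of the genes for steps between them, HCT2 and 4CL3 are named here, and both fell by less than COMT1. HCT2 (Os02g0611800), a hydroxycinnamoyl transferase, was at 235.0 ± 7.24 CPM in f3h root and 429.8 ± 21.6 CPM in WT root (log2 -0.90 ± 0.05). 4CL3 (Os02g0177600), a coumarate-CoA ligase, was at 159.2 ± 3.98 CPM in f3h root and 285.8 ± 12.5 CPM in WT root (log2 -0.87 ± 0.05). These lower levels were seen in each f3h library. The 1 member that rose was CAD7 (Os04g0612700), listed as a cinnamyl alcohol dehydrogenase, from a low level, at 1.52 ± 0.174 CPM in f3h root and 0.169 ± 0.202 CPM in WT root. CAD7 and the further genes in the sections below that are neither among the 4 smallest p-values of their list nor among the 10 largest changes were named after their values were seen.

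Cell wall genes went the same way. Of 20 tested members, 15 fell and 1 rose, with a median of -0.78. CESA4 (Os01g0750300), a cellulose synthase of secondary walls, was at 53.25, 52.98 and 56.15 CPM in f3h root and 132.8, 125.4 and 126.9 CPM in WT root (log2 -1.28 ± 0.06, adjusted p = 7.21e-17). The primary wall subunits CESA6 (Os07g0252400, log2 -1.12 ± 0.06), CESA8 (Os07g0208500, log2 -0.84 ± 0.06) and CESA1 (Os05g0176100, log2 -0.72 ± 0.05) fell with it. Only CESA4 is given here for the secondary wall class. BC1 (Os03g0416200), a COBRA-like protein that affects cellulose assembly in stiff tissues, was low in both genotypes, at 1.92 ± 0.322 CPM in f3h root and 3.96 ± 0.883 CPM in WT root (log2 -1.08 ± 0.30). The 1 member that rose was CSLD4 (Os12g0555600), a cellulose synthase-like protein (log2 0.69 ± 0.09), which is expressed in dividing cells.

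**Figure D3:**
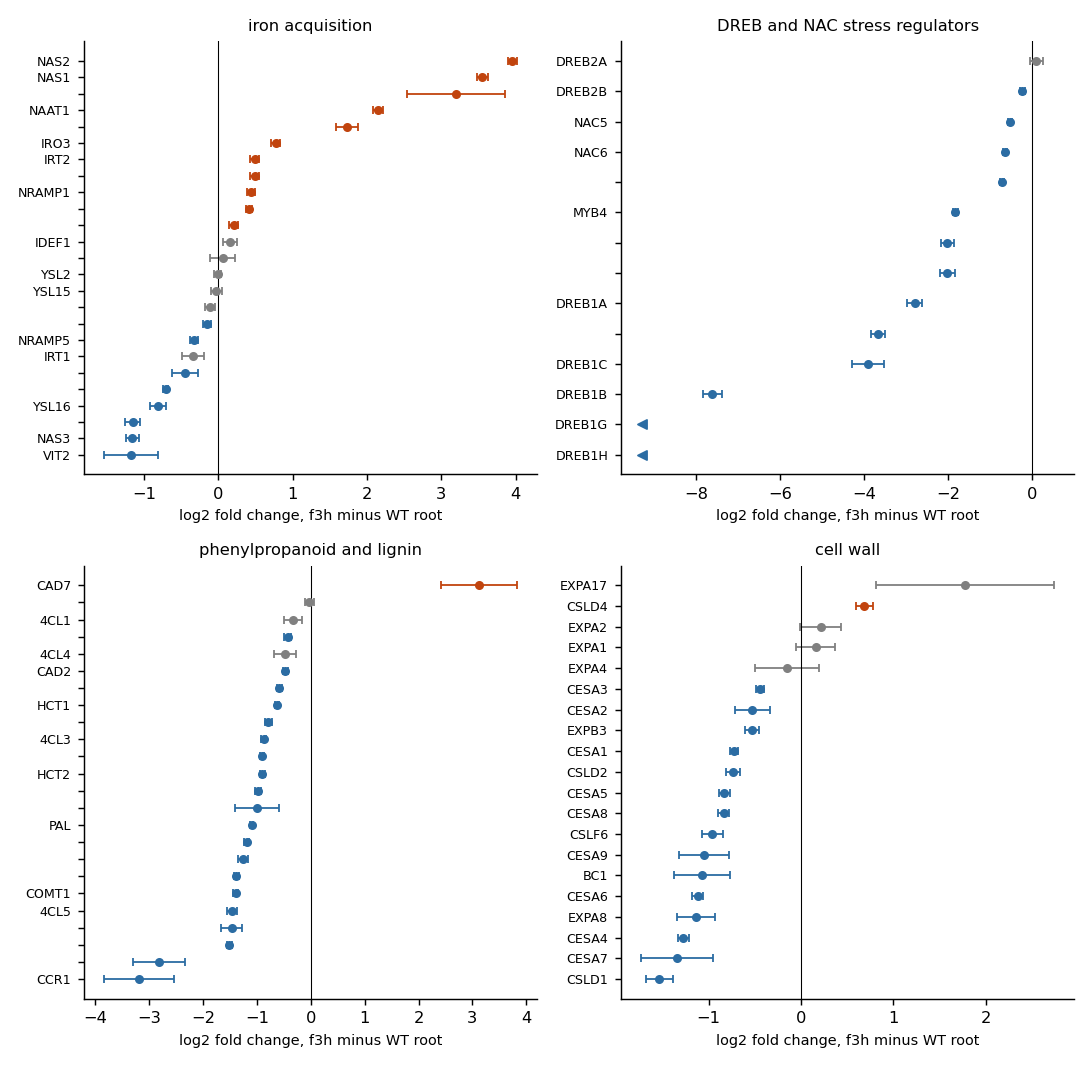
Log2 fold changes (f3h root minus WT root, x axis) with standard errors are drawn for each tested member of 4 lists, with orange for higher, blue for lower and grey for an adjusted p of 0.05 or more. Rows without a label are loci whose names were not checked, and triangles at the left edge are genes with at most 3 counts summed over f3h root. The phenylpropanoid and cell wall panels lie mostly left of 0.

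Among the genes with checked names and an average log2 CPM of at least 1 whose libraries did not overlap, the 10 largest falls were all in the lists of DREB and NAC regulators and of abscisic acid and water deficit. This ranking covers list loci only, since names were checked for no others. The lists were chosen with earlier results of these data known. DREB1 factors bind the drought-responsive element and are switched on within minutes to hours of cold or other stress, and dehydrins such as the RAB16 proteins accumulate in drying cells under abscisic acid. In the list of DREB and NAC stress regulators, 13 of 14 tested members fell, 9 of them by at least 2-fold, and none rose. Members near 0 in f3h root, such as DREB1H and DREB1G, passed the expression filter through WT root and could only be called lower. The median log2 fold change was -2.02. Setting the genes at 0 counts to their bound could not move it, since those bounds lie far below the median.

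DREB1H (Os09g0522100) had no count in the f3h root libraries and was at 37.9, 46.1 and 41.7 CPM in WT root, at least 1082-fold lower over the group in f3h root. DREB1G (Os02g0677300) had no count in f3h root either and was at 7.55, 8.24 and 9.53 CPM in WT root, at least 219-fold lower. DREB1B (Os09g0522000), which lies beside DREB1H by its locus number, was at 0, 0.466 and 0.379 CPM in f3h root and 54.8, 59.3 and 52.7 CPM in WT root (log2 -7.62 ± 0.23, adjusted p = 6.58e-22). All 3 genes were thus on in each WT root library and at or near 0 in each f3h root library. Weaker falls were seen in DREB1C (Os06g0127100), at 0.359 ± 0.181 CPM in f3h root and 5.39 ± 1.26 CPM in WT root, and DREB1A (Os09g0522200), at 3.25 ± 0.605 CPM in f3h root and 22.2 ± 5.44 CPM in WT root.

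The factors outside the DREB1 group changed less. MYB4 (Os04g0517100), a MYB factor of cold tolerance, was at 63.3, 65.4 and 72.5 CPM in f3h root and 233.6, 234.6 and 233.6 CPM in WT root (log2 -1.83 ± 0.06). NAC6 (Os01g0884300, log2 -0.66 ± 0.05) and NAC5 (Os11g0184900, log2 -0.54 ± 0.05), stress-induced NAC factors, fell by under 2-fold. DREB2A (Os01g0165000), which acts in drought and heat, was the exception, at 15.7 ± 2.4 CPM in f3h root and 14.4 ± 2.48 CPM in WT root (adjusted p = 0.626).

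In the abscisic acid and water deficit list, 12 of 24 tested members fell and 4 rose, with a median of -0.24. RAB16D, near 0 in f3h root, passed the expression filter through WT root and could only be called lower. The 7 members lower by at least 2-fold were 4 dehydrins, LEA3, SALT and ABA8OX1. The dehydrin RAB21 (Os11g0454300) was at 1.09, 1.22 and 0.674 CPM in f3h root and 65.4, 66.1 and 65.2 CPM in WT root (log2 -6.05 ± 0.14, adjusted p = 2.21e-24). RAB16D (Os11g0453900) had 2 counts over the f3h root libraries and was at 23.4 ± 2.03 CPM in WT root, a ratio of 908 (exact 95% counting interval 251 to 7501). RAB16B (Os11g0454200, log2 -5.08 ± 0.40) and RAB16C (Os11g0454000, log2 -4.98 ± 0.41) fell likewise, although these near-identical neighbours may share reads. LEA3 (Os05g0542500), a late embryogenesis abundant protein, was at 0.271, 0.466 and 1.09 CPM in f3h root and 13.96, 14.2 and 13.91 CPM in WT root (log2 -4.57 ± 0.28).

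SALT (Os01g0348900), a salt-induced lectin, had far higher counts and still fell to 147.7, 140.6 and 144.4 CPM in f3h root, against 921.9, 878.6 and 923.6 CPM in WT root (log2 -2.68 ± 0.04, adjusted p = 7.16e-29). Among the SnRK2 protein kinases of abscisic acid signalling, SAPK9 (Os12g0586100) was higher, at 190.7 ± 6.38 CPM in f3h root and 106.1 ± 1.69 CPM in WT root, SAPK2 (Os07g0622000) was lower (log2 -0.42 ± 0.08), and SAPK1 (Os03g0390200) and SAPK8 (Os03g0764800) were not called. ABA8OX1 (Os02g0703600), which breaks down abscisic acid, fell (log2 -2.23 ± 0.42) and P5CS1 (Os05g0455500), of proline synthesis, rose (log2 0.60 ± 0.05).

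**Figure D4:**
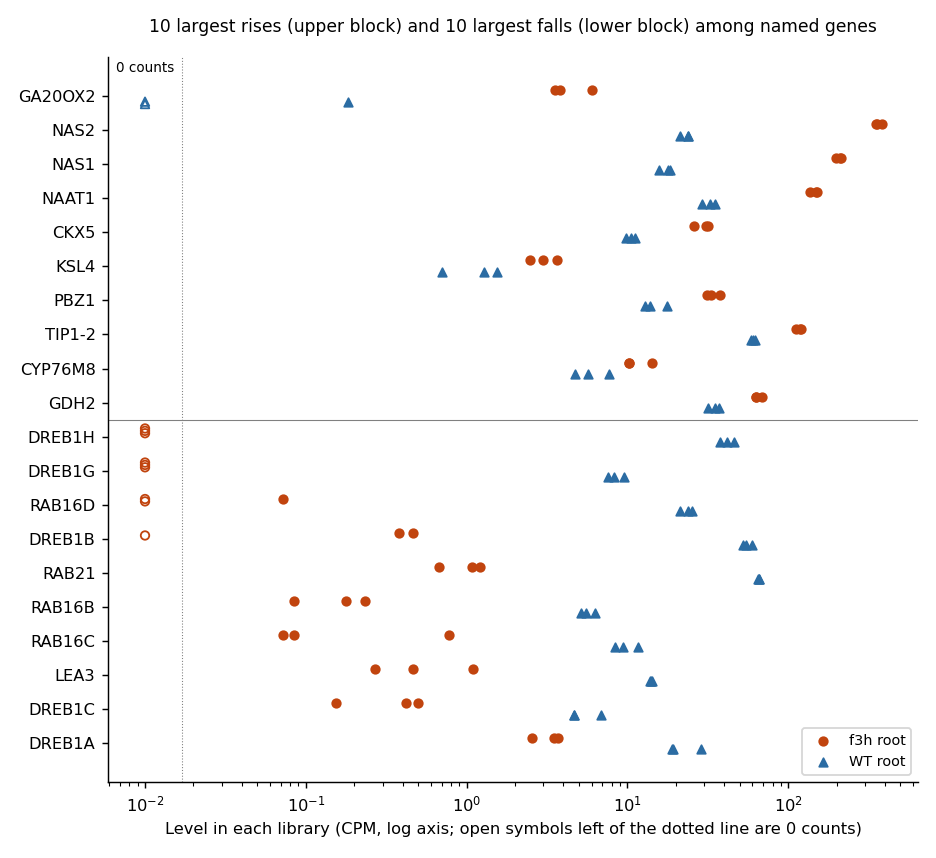
Levels of each library (CPM, log axis) are drawn for the 10 named genes with the largest rises and the 10 with the largest falls, with circles for f3h root above triangles for WT root. Genes were chosen for libraries that do not overlap between the genotypes, and DREB1H and DREB1G are at 0 counts in each f3h root library.

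Among the genes with checked names that averaged a log2 CPM of 1 or more and were not leaf-restricted, NAS2 and NAS1 of iron acquisition had the largest rises after GA20OX2, which is near 0 in WT root. This ranking also covers list loci only. Nicotianamine synthases join S-adenosylmethionine into nicotianamine, which chelates metals in the plant and is the precursor of the secreted phytosiderophore. NAS2 (Os03g0307200) was at 381.6, 355.9 and 353.5 CPM in f3h root and 23.8, 24.0 and 21.4 CPM in WT root (log2 3.95 ± 0.06, adjusted p = 7.16e-29). NAS1 (Os03g0307300) was at 212.8, 211.6 and 198.8 CPM in f3h root and 18.45, 18.01 and 15.66 CPM in WT root (log2 3.55 ± 0.07, adjusted p = 3.08e-26). The lowest f3h library was more than 10-fold above the highest WT library in both genes. In f3h leaf they stood at 47.2 ± 8.27 and 20.6 ± 3.80 CPM, below their f3h root levels.

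NAAT1 (Os02g0306401), the aminotransferase that takes nicotianamine on towards the phytosiderophore, was at 137.4, 149.8 and 152.3 CPM in f3h root and 32.8, 29.3 and 34.9 CPM in WT root (log2 2.15 ± 0.07), and its f3h root level was 196% of its f3h leaf level. NAS3 (Os07g0689600), the third nicotianamine synthase of the list, went the other way, at 27.8, 26.3 and 25.9 CPM in f3h root and 58.6, 61.6 and 54.3 CPM in WT root (log2 -1.16 ± 0.08, adjusted p = 1.52e-12). The iron list as a whole held 11 members that rose and 8 that fell of 25 tested, with a median of 0.06, so it did not move in 1 direction.

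Regulators and transporters of iron showed smaller changes. IRO3 (Os03g0379300), a bHLH factor that restrains the iron deficiency response, rose to 187.7 ± 8.06 CPM in f3h root, against 107.8 ± 7.70 CPM in WT root, and NRAMP1 (Os07g0258400), a metal importer, rose (log2 0.44 ± 0.06). Of the ferrous iron transporters, IRT2 (Os03g0667300) rose (log2 0.49 ± 0.07) and IRT1 (Os03g0667500) was at 11.1 ± 0.491 CPM in f3h root and 13.8 ± 2.32 CPM in WT root (adjusted p = 0.0594). YSL15 (Os02g0650300), which imports the iron complex of the phytosiderophore, was at 60.1 ± 2.43 CPM in f3h root and 59.9 ± 1.53 CPM in WT root (adjusted p = 0.789). YSL16 (Os04g0542800), of the same transporter family, fell (log2 -0.81 ± 0.11).

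In the methionine cycle, which feeds nicotianamine synthesis, 2 of 5 tested members rose and 2 fell, beside 24.9% and 25.4% of all tested genes. MTK1 (Os04g0669800), a methylthioribose kinase that recycles the by-product of the nicotianamine and ethylene pathways, was at 148.7 ± 3.88 CPM in f3h root and 97.8 ± 3.66 CPM in WT root (log2 0.57 ± 0.06). SAM1 (Os05g0135700), an S-adenosylmethionine synthetase, was at 201.9 ± 11.3 CPM in f3h root and 257.2 ± 10.7 CPM in WT root (log2 -0.38 ± 0.05), a call that the fit of all 12 libraries did not keep (adjusted p = 0.212). SAM2 (Os01g0323600), listed as another, had 0.421 ± 0.382 CPM in f3h root and 0.265 ± 0.244 CPM in WT root (adjusted p = 0.605).

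Transporters of zinc, cadmium and silicon were mostly lower. Of 13 tested members, 8 fell and 1 rose, with a median of -0.94. LSI6 (Os06g0228200), a silicon channel known from xylem unloading in shoots, was at 13.8, 15.4 and 12.8 CPM in f3h root and 51.7, 48.8 and 43.1 CPM in WT root (log2 -1.80 ± 0.10). HMA2 (Os06g0700700), a pump that moves zinc and cadmium towards the xylem, was at 51.2, 57.6 and 55.2 CPM in f3h root and 100.8, 106.5 and 116.1 CPM in WT root (log2 -1.01 ± 0.07). The zinc transporters ZIP4 (Os08g0207500, log2 -2.20 ± 0.23) and ZIP5 (Os05g0472700, log2 -1.42 ± 0.19) fell at lower counts, and the member that rose was MTP1 (Os05g0128400), a tonoplast zinc transporter (log2 0.26 ± 0.07).

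Phosphate genes fell and none rose. In that list 10 of 16 tested members were lower, 6 by at least 2-fold, with a median of -0.71. PHO1-2 (Os02g0809800), which loads phosphate into the xylem, was at 339.1, 335.3 and 344.0 CPM in f3h root and 790.4, 719.5 and 807.5 CPM in WT root (log2 -1.22 ± 0.04, adjusted p = 1.26e-20). The uptake transporters PT8 (Os10g0444700, 11.5 ± 0.622 CPM in f3h root and 37.6 ± 1.89 CPM in WT root) and PT1 (Os03g0150600, 84.3 ± 3.28 CPM in f3h root and 162.8 ± 4.62 CPM in WT root) were lower in each f3h library. Of the regulators, PHR1 (Os03g0329900) fell (log2 -0.41 ± 0.06) while PHR2 (Os07g0438800), the main activator of the phosphate starvation response, was at 101.8 ± 8.35 CPM in f3h root and 97.3 ± 7.33 CPM in WT root (adjusted p = 0.689). SPX2 (Os02g0202200), a phosphate sensor that responds to starvation, fell to 0.122 ± 0.115 CPM in f3h root, against 1.61 ± 0.339 CPM in WT root.

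In the nitrogen list, 9 of 18 tested members fell and 3 rose, with a median of -0.58. GLN1-2 (Os03g0223400), the main cytosolic glutamine synthetase of roots, was at 114.2, 120.6 and 120.5 CPM in f3h root and 266.0, 281.8 and 273.2 CPM in WT root (log2 -1.24 ± 0.05). GLN1-3 (Os03g0712800), a further cytosolic form, was at 4.55 ± 1.17 CPM in f3h root and 17.03 ± 1.222 CPM in WT root, and GLU (Os07g0658400), a ferredoxin-dependent glutamate synthase, fell by under 2-fold (log2 -0.80 ± 0.05).

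The 2 named glutamate dehydrogenases, which can release ammonium from glutamate, were higher. GDH2 (Os04g0543900) was at 69.3, 63.0 and 62.9 CPM in f3h root and 35.0, 37.2 and 31.8 CPM in WT root (log2 0.88 ± 0.08), with an f3h root level of 434% of its f3h leaf level, and GDH1 (Os03g0794500) was at 341.6 ± 9.44 CPM in f3h root and 237.7 ± 16.6 CPM in WT root. Among the importers, the nitrate transporter NRT2.3 (Os01g0704100, log2 -2.80 ± 0.30), its partner protein NAR2.1 (Os02g0595900, log2 -2.37 ± 0.35) and the ammonium transporter AMT1-1 (Os04g0509600, log2 -0.95 ± 0.15) were lower in f3h root.

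Aquaporins, the water channels of the plasma membrane (PIP) and the vacuole (TIP), moved in both directions. Of 18 tested members 9 fell and 5 rose, with a median of -0.35, beside 25.4% lower and 24.9% higher over all tested genes. PIP1-3 (Os02g0823100) was at 479.2, 471.6 and 469.3 CPM in f3h root and 1140, 1193 and 1110 CPM in WT root (log2 -1.31 ± 0.04, adjusted p = 1.37e-22). PIP2-1 (Os07g0448800) was at 528.9 ± 16.5 CPM in f3h root and 847.5 ± 46.3 CPM in WT root. The vacuolar TIP2-1 (Os02g0658100) fell as well (log2 -1.55 ± 0.09), whereas TIP2-2 (Os06g0336200) rose to 643.0 ± 11.01 CPM in f3h root, against 375.7 ± 12.1 CPM in WT root. TIP1-2 (Os01g0975900) was at 119.7, 119.1 and 111.6 CPM in f3h root and 60.5, 62.1 and 58.6 CPM in WT root (log2 0.92 ± 0.06). It is 48.5-fold higher in WT leaf than in WT root, and its f3h root level was 7.71% of its f3h leaf level.

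For sodium and potassium transport, 2 of 8 tested members fell and 2 rose, near the shares over all tested genes (25.4% lower and 24.9% higher). HKT8 (Os01g0307500), which retrieves sodium from the xylem, was at 25.15, 21.99 and 25.65 CPM in f3h root and 59.8, 56.8 and 56.1 CPM in WT root (log2 -1.28 ± 0.09). HAK1 (Os04g0401700), a high-affinity potassium importer, was at 6.75 ± 1.01 CPM in f3h root and 18.2 ± 1.43 CPM in WT root (log2 -1.46 ± 0.15). HKT4 (Os04g0607500) is leaf-restricted, at 1.69 ± 0.717 CPM in f3h root and 0.647 ± 0.150 CPM in WT root, and its rise was called at an adjusted p of 0.0276 but not without f3h root replicate 1 (adjusted p = 0.200), WT root replicate 1 (adjusted p = 0.0678) or WT root replicate 2 (adjusted p = 0.0814). HKT6 (Os02g0175000) was at 0.339 ± 0.305 CPM in f3h root and 0.640 ± 0.401 CPM in WT root and was not called.

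**Figure D5:**
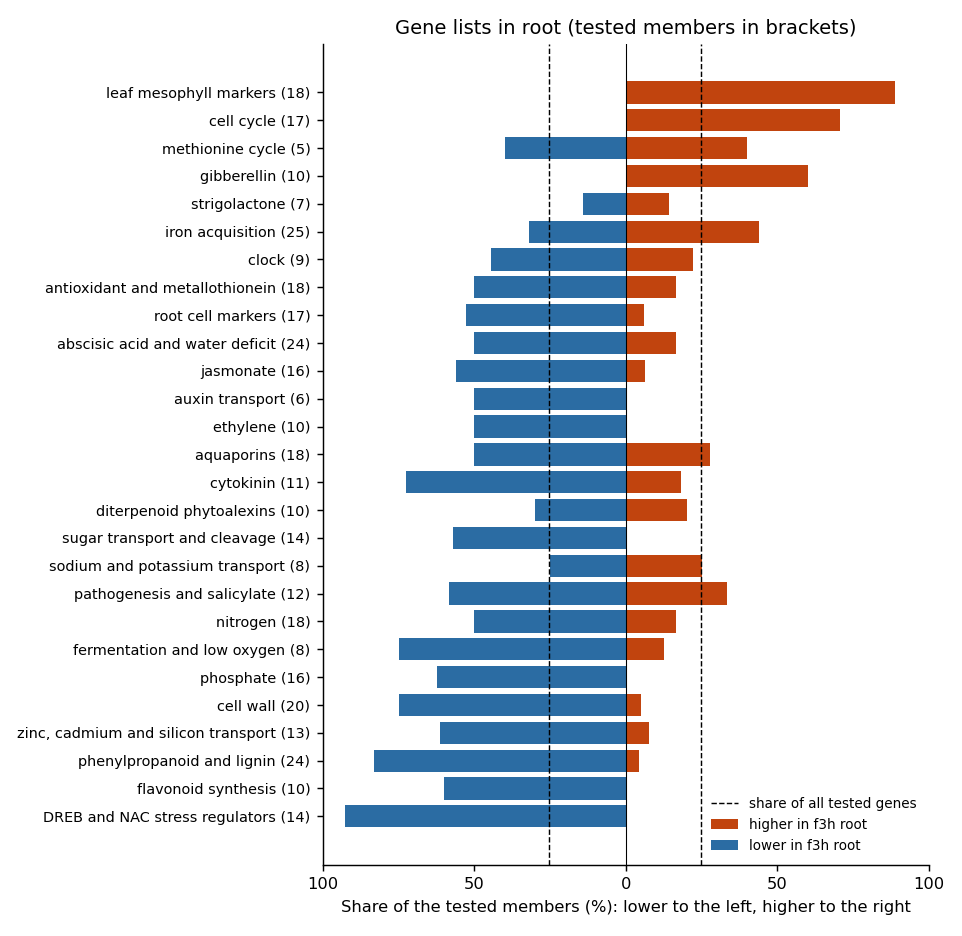
For each of 27 gene lists, the bars give the share of tested members called higher (right) or lower (left) in f3h root, in percent, with the number tested in brackets and lists ordered by their median log2 fold change. Dashed lines mark the shares over all tested genes, 24.9% higher and 25.4% lower, which the DREB and NAC, phenylpropanoid, cell wall and fermentation lists exceed, among others, on the left and the mesophyll, cell cycle and gibberellin lists on the right.

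Gibberellin genes rose and none fell, with 6 of 10 tested members higher and a median of 0.23. GA20OX2 (Os01g0883800), the oxidase of bioactive gibberellin synthesis known from semi-dwarf rice, was at 3.80, 6.05 and 3.54 CPM in f3h root and 0.182, 0 and 0 CPM in WT root (log2 6.10 ± 0.61, adjusted p = 1.46e-09). It was close to silent in WT root, with 5 counts over the group, so the size of its rise is imprecise. GA20OX2 passed the expression filter through f3h root and could only be called higher. Its f3h root level was 30.03% of its f3h leaf level of 14.9 ± 2.43 CPM. The earlier enzymes KS1 (Os04g0611800, kaurene synthase, log2 0.82 ± 0.19) and KO2 (Os06g0570100, kaurene oxidase, log2 0.33 ± 0.09) rose by under 2-fold. The receptor GID1 (Os05g0407500) was 228.7 ± 1.79 CPM in f3h root and 206.1 ± 2.50 CPM in WT root, a call that was lost without f3h root replicate 1, 2 or 3 or WT root replicate 1 (adjusted p 0.0553 to 0.0797) and in the fit of all 12 libraries (adjusted p = 0.317).

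Cytokinin genes were mostly lower, with 8 of 11 tested members falling and 2 rising. RR6 (Os04g0673300), a type-A response regulator induced by cytokinin, was at 9.77, 9.10 and 10.6 CPM in f3h root and 30.6, 31.7 and 25.5 CPM in WT root (log2 -1.604 ± 0.126). RR2 (Os02g0557800, log2 -0.44 ± 0.06) and RR9 (Os11g0143300, log2 -0.63 ± 0.10), of the same type, fell with it. CKX5 (Os01g0775400), an oxidase that degrades cytokinin, was at 30.9, 25.9 and 31.7 CPM in f3h root and 11.2, 9.85 and 10.5 CPM in WT root (log2 1.45 ± 0.12). The f3h root level was 122% of the f3h leaf level.

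Of the 6 tested auxin transporters, 3 fell and none rose. PIN9 (Os01g0802700), a root-expressed auxin efflux carrier of monocots, was at 32.5, 33.6 and 35.1 CPM in f3h root and 92.4, 98.3 and 94.99 CPM in WT root (log2 -1.53 ± 0.07, adjusted p = 3.00e-17). PIN5A (Os01g0919800) fell less (log2 -0.62 ± 0.15), and PIN1C (Os06g0232300) was at 10.1 ± 0.837 CPM in f3h root and 11.8 ± 2.37 CPM in WT root (adjusted p = 0.218).

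Jasmonate genes fell in 9 of 16 tested members and rose in 1. The TIFY11 proteins are repressors whose genes respond to jasmonate and wounding within a short time. TIFY11B (Os03g0181100) was at 18.1, 21.85 and 20.01 CPM in f3h root and 111.9, 126.3 and 111.1 CPM in WT root (log2 -2.57 ± 0.08, adjusted p = 1.94e-21). TIFY11A (Os03g0180800), its near neighbour, was at 4.63 ± 1.12 CPM in f3h root and 29.5 ± 3.97 CPM in WT root (log2 -2.71 ± 0.16), and the TIFY10 repressor genes TIFY10A (Os03g0402800) and TIFY10B (Os07g0615200) fell by under 2-fold (log2 -0.45 ± 0.06 and -0.43 ± 0.04). AOS2 (Os03g0225900), an allene oxide synthase of jasmonate synthesis, was at 9.64 ± 0.254 CPM in f3h root and 19.2 ± 0.894 CPM in WT root.

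Ethylene genes fell in 5 of 10 tested members, none rose, and all were under 2-fold. The receptors ETR3 (Os02g0820900, log2 -0.44 ± 0.07) and ETR2 (Os04g0169100, log2 -0.20 ± 0.05) were lower. In the fit of all 12 libraries ETR3 (adjusted p = 0.0556), ACS2 (adjusted p = 0.122) and EIN2 (adjusted p = 0.130) were not called. The low-level calls of ACS2 (Os04g0578000), an ethylene synthesis enzyme, and of EIN2 (Os07g0155600), the central signalling protein, rested on single libraries. ACS2 was not called without f3h root replicate 3 (adjusted p = 0.0620) or WT root replicate 2 (adjusted p = 0.122). EIN2 was not called without f3h root replicate 3 (adjusted p = 0.0943), WT root replicate 1 (adjusted p = 0.0551) or WT root replicate 3 (adjusted p = 0.294).

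In the strigolactone list, 1 of 7 tested members rose and 1 fell, beside 24.9% and 25.4% of all tested genes. The one that rose was the receptor D14 (Os03g0203200), at 1016, 1017 and 995.8 CPM in f3h root and 687.6, 725.4 and 677.1 CPM in WT root (log2 0.50 ± 0.04). Its signalling partner D3 (Os06g0154200) was at 91.4 ± 2.13 CPM in f3h root and 83.3 ± 3.29 CPM in WT root (adjusted p = 0.157), and the synthesis gene D17 (Os04g0550600) overlapped between genotypes (adjusted p = 0.702).

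Cell cycle genes rose together and none fell. Of 17 tested members 12 were higher in f3h root, each by under 2-fold, with a median of 0.38. The mitotic cyclin CYCB1-1 (Os01g0805600) was at 48.8, 44.9 and 44.6 CPM in f3h root and 25.3, 26.1 and 28.8 CPM in WT root (log2 0.75 ± 0.09). The mitotic kinase CDKB1-1 (Os01g0897000) was at 29.8, 29.3 and 26.4 CPM in f3h root and 16, 15.05 and 16.07 CPM in WT root (log2 0.83 ± 0.11). CDKB2-1 (Os08g0512600, log2 0.72 ± 0.10) and CYCB2-2 (Os06g0726800, log2 0.65 ± 0.10) did likewise, and the replication factors PCNA (Os02g0805200, log2 0.38 ± 0.06) and MCM5 (Os02g0797400, log2 0.49 ± 0.10) rose less. CDKA-1 (Os03g0118400), the kinase used throughout the cycle, was at 7.60 ± 1.08 CPM in f3h root and 6.89 ± 0.658 CPM in WT root (adjusted p = 0.652).

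Sugar transport and cleavage genes fell in 8 of 14 tested members and none rose. SUT1 (Os03g0170900), a sucrose transporter of phloem loading and unloading, was at 16.5, 16.9 and 15.5 CPM in f3h root and 52.6, 48.7 and 49.5 CPM in WT root (log2 -1.65 ± 0.09). MST3 (Os07g0106200), a monosaccharide transporter, was at 210.4 ± 1.59 CPM in f3h root and 362.5 ± 15.2 CPM in WT root, the trehalose phosphatase TPP1 (Os02g0661100) fell (log2 -1.22 ± 0.09), and the cell wall invertase CIN2 (Os04g0413500) fell by under 2-fold (log2 -0.52 ± 0.06).

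Fermentation genes, which supply energy in waterlogged roots, fell in 6 of 8 tested members, with a median of -0.63. ADH2 (Os11g0210500), an alcohol dehydrogenase, was at 2035, 2016 and 1996 CPM in f3h root and 3737, 3880 and 3941 CPM in WT root (log2 -0.96 ± 0.03, adjusted p = 9.22e-23). ADH1 (Os11g0210300), its neighbour, was at 353.4 ± 8.17 CPM in f3h root and 733.9 ± 18.8 CPM in WT root, and the haemoglobin gene HB1 (Os03g0233900) fell (log2 -0.56 ± 0.04). The 1 member that rose was SUS1 (Os03g0401300), a sucrose synthase, at 436.2, 423.6 and 424.7 CPM in f3h root and 241.6, 272.5 and 267.9 CPM in WT root (log2 0.69 ± 0.05).

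Defence genes moved in both directions, with 7 of 12 tested pathogenesis and salicylate members lower and 4 higher. The shares over all tested genes were 25.4% lower and 24.9% higher. WRKY71 (Os02g0181300), a fast defence regulator, was at 42.9, 50.4 and 47.6 CPM in f3h root and 172.2, 179.3 and 178.0 CPM in WT root (log2 -1.94 ± 0.06, adjusted p = 4.60e-21), and the chitinase CHT1 (Os06g0726200) was at 358.5 ± 1.28 CPM in f3h root and 610.5 ± 23.1 CPM in WT root. NPR1 (Os01g0194300), the salicylate co-activator, and PBZ1 (Os12g0555500), a PR10 protein, rose. NPR1 was at 112.5 ± 2.05 CPM in f3h root and 61.1 ± 5.04 CPM in WT root, and PBZ1 at 37.9, 31.3 and 32.9 CPM in f3h root and 13.7, 17.6 and 12.9 CPM in WT root (log2 1.18 ± 0.12), with an f3h root level of 76.6% of its f3h leaf level.

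Of 10 tested genes of diterpenoid phytoalexin synthesis, 2 rose and 3 fell, near the shares over all tested genes (24.9% higher and 25.4% lower). KSL4 (Os04g0179700), the synthase of the momilactone branch, was at 3.64, 3.01 and 2.48 CPM in f3h root and 1.28, 1.54 and 0.707 CPM in WT root (log2 1.35 ± 0.38), and CYP76M8 (Os02g0569400), a hydroxylase of the same metabolism, was at 11.6 ± 2.35 CPM in f3h root and 6.03 ± 1.52 CPM in WT root. The f3h root levels were 5172% of the f3h leaf level for KSL4 and 10300% for CYP76M8. Both rises held in each of the fits that left out 1 root library, but neither in the fit of all 12 libraries (adjusted p = 0.0836 for KSL4 and 0.116 for CYP76M8). KSL7 (Os02g0570400), a synthase of the phytocassane branch, and CYP99A3 (Os04g0178400), of momilactone synthesis, were not called with all libraries but were lower without f3h root replicate 1 (adjusted p = 0.0433 and 0.00339).

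Antioxidant genes fell in 9 of 18 tested members and rose in 3. CATA (Os02g0115700), a catalase, was at 89.9, 94.2 and 88.0 CPM in f3h root and 308.0, 306.5 and 306.1 CPM in WT root (log2 -1.79 ± 0.05, adjusted p = 9.90e-23). SODA (Os05g0323900, a manganese superoxide dismutase, log2 -0.54 ± 0.05) and the ascorbate peroxidases APX7 (Os04g0434800, log2 -0.44 ± 0.05) and APX1 (Os03g0285700, log2 -0.32 ± 0.04) fell by under 2-fold. Clock genes, which depend on the hour of harvest, rose in 2 and fell in 4 of 9 tested members, beside 24.9% and 25.4% of all tested genes. The hour at which each group was collected is not given in the sources used here. PRR37 (Os07g0695100), a day-phased pseudo-response regulator, was at 40.36 ± 2.298 CPM in f3h root and 22.1 ± 1.64 CPM in WT root, and LHY (Os08g0157600, morning-phased, log2 -0.34 ± 0.05), GI (Os01g0182600, evening-phased, log2 -0.23 ± 0.03) and ELF3-1 (Os06g0142600, log2 -0.45 ± 0.07) fell.

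Across all 27 lists, 373 of 430 loci were tested, of which 81 were higher and 183 lower, and 29 were higher and 85 lower by at least 2-fold. Of all tested genes 24.9% were higher and 25.4% lower, and 4.54% were higher and 9.74% lower by at least 2-fold. The list loci were chosen with earlier results of these data known.

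Some loci without a checked name had root counts in a single genotype, and the cause was not tested. Os03g0115800 had 10175, 10610 and 8465 counts in f3h root and none in WT root, at least 10630-fold higher, and it was also at 105.1 CPM in f3h leaf with 2 counts in all over WT leaf. Os07g0115200 had 2338, 2446 and 2172 counts in f3h root and none in WT root or in either leaf group, at least 2527-fold higher in f3h root. In the other direction, Os12g0630200 had no count in f3h root and 889, 909 and 843 counts in WT root, at least 808-fold lower, and Os09g0457900 had none in f3h root and 580, 551 and 529 counts in WT root, at least 508-fold lower. These 4 loci were picked for large fold changes among genes whose libraries do not overlap, so their separation is no result of its own.

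The f3h effect in root was also set against that in leaf, as an interaction term over all 12 libraries. Of 26328 genes tested, 8806 had effects that differed between the organs (33.4%).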

How the data were processed

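The authors deposited 1 table of raw counts, not normalized, for every gene and library. Tools named per the submitters' processing notes are DESeq, featureCounts, HISAT2 and fastp, without versions. The sources used here do not name the genome build, the annotation or the strand setting. Without the strand setting, reads of a gene and an overlapping or antisense gene cannot be told apart, and near-identical copies may share reads. Per the labels' protocols, libraries came from total RNA with an mRNA kit.

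Each of the 12 columns matched 1 sample label. Root libraries were fitted alone in edgeR 4.0.16 (R 4.3.3; filterByExpr, TMM, quasi-likelihood test, Benjamini-Hochberg adjustment over 24583 genes, threshold 0.05), after a test on simulated counts. CPM was computed from library totals, and standard errors of log2 fold changes from the F statistic. Genes above a 64-fold ratio of WT leaf to WT root were set apart. For genes at 0 counts over a group, bounds take 3 counts as the floor; bounds and intervals cover counting error only. With 3 libraries against 3, an exact permutation test cannot go below p = 0.1, so none was used.

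The members and the 27 gene lists were chosen with earlier results of these data known. The table holds no gene names. Names of list loci were printed where the RefSeq table of assembly ASM3414082v1 holds them on the chromosome of the locus and within 10% of its length of the implied place (305 of 430 loci); the others are counted only. Named genes were the 10 largest rises and 10 largest falls (average log2 CPM of at least 1, libraries not overlapping, not leaf-restricted), the 4 checked members of lowest p in every list, the flavanone 3-hydroxylase loci, the 4 named leaf-restricted genes highest in WT leaf and 4 loci without names. The loci without names had the largest changes under the same limits as the 10 largest rises and falls. Pairing by replicate number was checked and not found. Promoter motifs were not analysed here, since no sequences were at hand. Alternatives were RLE, upper quartile and restricted TMM scaling, DESeq2 1.42.0, limma 3.58.1 voom, other count filters, a fit of all 12 libraries, a replicate block, each library left out, and a test against a 2-fold threshold.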

Additional observations from a re-analysis of the deposited data

Results flagged for a closer look

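For the 4 named genes with the largest rise in root and the 4 with the largest fall, the f3h effect in root was tested against that in leaf as an interaction term on all 12 libraries (edgeR, adjusted over all genes tested). In 6 of the 8 genes the effects differed, beside 33.4% of all 26328 genes tested, and the 8 were picked for large effects in root.

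NAAT1 (Os02g0306401) rose in root, and in leaf it was at 74.8 ± 2.95 CPM in f3h and 104.3 ± 18.1 CPM in WT. The effect in root was higher by 2.59 on the log2 scale (adjusted p = 1.51e-08). GA20OX2 (Os01g0883800) rose in root, and in leaf it was at 14.9 ± 2.43 CPM in f3h leaf and 3.52 ± 0.618 CPM in WT leaf, and its effect was higher in root by 3.98 (adjusted p = 0.000481), a size that rests on 5 counts in WT root.

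The DREB1 genes and RAB16D were low in leaf in both genotypes, with counts as follows. DREB1B (Os09g0522000) was at 1.57 ± 0.451 CPM in f3h leaf and 1.88 ± 0.550 CPM in WT leaf, and its root effect minus its leaf effect was -7.38 (adjusted p = 9.33e-08). DREB1H (Os09g0522100) had 39 counts in f3h leaf and 22 in WT leaf (difference of the effects -13.82, adjusted p = 1.03e-06), and DREB1G (Os02g0677300) had 10 in f3h leaf and 8 in WT leaf (difference -10.97, adjusted p = 6.04e-05). RAB16D (Os11g0453900) had 2 counts in f3h leaf and 3 in WT leaf (difference -9.03, adjusted p = 0.0127). The fitted sizes for these 3 genes depend on the prior count used at 0 and are no bounds.

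The other 2 genes were not called. NAS2 (Os03g0307200) and NAS1 (Os03g0307300) had root effects 0.07 and 0.10 smaller than their leaf effects (differences -0.07 and -0.10, adjusted p = 0.815 and 0.772), which does not show that the effects are equal.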

How the results depend on the processing

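The counts of genes called stayed within 1.5 times the reported ones under every other scaling, tool and library left out. Without 1 library, 5258 to 5760 genes were higher and 5583 to 6086 lower, and at least 2-fold changes numbered 1040 to 1224 higher and 2265 to 2517 lower. A test against a 2-fold threshold called 422 higher and 1199 lower. With at least 50 counts in 3 libraries, 740 genes were at least 2-fold higher, as fewer genes were tested. With upper quartile scaling, 6470 genes were higher and 5974 lower, the largest shift of the split among the scalings. Among leaf-restricted genes 14 were lower with no count filter; with a 16-fold limit 254 were higher and 64 lower, and with a limit 4 times the 64-fold one 0 were lower. The sugar list gained 1 member that rose with upper quartile scaling and with TMM without leaf-restricted genes (1 in each). Replicate numbers did not pair the libraries (r of deviations -0.004, 0.023 and 0.004), and the replicate block gave 6035 higher and 6190 lower, at least 2-fold 1074 and 2364. It ended the calls of EIN2 (adjusted p = 0.0544), CHS1 (0.0972) and HKT4 (0.0505).

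Without WT leaf replicate 1, the NAS2 difference between organs was 0.042 (adjusted p = 0.921), against -0.07 with it; the cause was not tested. Without f3h root replicate 3, SAM2 (-0.25, against up to 1.63 without another library) and D17 (0.080, against down to -0.25) changed sign, neither called. The fit of all 12 libraries ended 8 calls of the 116 named genes, those of KSL4, CYP76M8, ETR3, ACS2, EIN2, GID1, SAM1 and NRAMP5.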

Other observations

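Counting the loci without names described above, 24 genes had no count in f3h root and at least 1 CPM on average in WT root, and 28 genes had at least 1 CPM in f3h root and no count in WT root.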
